A study of Tupaia belangeri with 6 samples.

Results

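The 9 features described here are antisense transcripts of the tree shrew annotation: ANK3-AS-1, EXOC6B-AS-3, ZEB2-AS-1, PDE4B-AS-4, LRP1B-AS-2, NEGR1-AS-1, NEGR1-AS-2, CHST9-AS-2 and KIAA0100-AS-1. They are 9 of the 83605 features in the annotation, of which 22595 are named as antisense to a gene, and each carries the name of its sense gene before the letters AS. They were picked because, in an earlier look at these counts, they were lower in most cell classes of tree shrews (TSs, Tupaia belangeri) with the Alzheimer's-like phenotype (ALP) than in control TSs. Their ALP and control values are therefore given as a description, with no test. The counts come from single-nucleus RNA sequencing of the hippocampus of 3 control and 3 ALP TSs, 1 library per animal. All animals were aged TSs, ALP TSs were those with poor performance in a maze, and controls were age-matched animals without the deficit. No transgene, drug or other treatment is described as setting the groups apart. The study describes brain imaging under isoflurane before tissue was taken. The study ascribes the phenotype to natural ageing, which was not tested here, and animals within a group could differ in more than the library.

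An antisense transcript is read from the DNA strand opposite to a gene, often from within its introns or from its promoter region, and is often retained in the nucleus. Some antisense transcripts alter the transcription or splicing of the gene they overlap, and many have no known role. In 3′ libraries of nuclei they can only be told from the sense transcript if the strand of each read is used, and for these counts the use of strand is not stated, so every value of an antisense-named feature is uncertain to that extent. ANK3 encodes the scaffold ankyrin-G of the axon initial segment, EXOC6B a subunit of the exocyst that tethers secretory vesicles, ZEB2 a transcription repressor needed for myelination, PDE4B an enzyme that degrades cyclic AMP, LRP1B an endocytic receptor of the LDL receptor family, NEGR1 a cell adhesion molecule of neurites, and CHST9 a sulfotransferase acting on sugar chains.

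After the study's filter, which keeps nuclei with more than 200 and fewer than 2500 genes and under 5% mitochondrial UMIs (unique molecular identifiers, each a counted RNA molecule), the libraries held between 1614 (Control 2) and 7022 (Control 1) nuclei and between 4159545 and 15412799 UMIs. At most 0.465% of the barcodes of a library were shared with another library. Nuclei were clustered without the 9 features, their sense genes and the other antisense features of these genes, and the 8 classes described here were each named from at least 3 marker genes: Gran-like (granule neurons), Pyra-like (pyramidal neurons), InN-like (interneurons), and the Astro-like, Oligo-like, OPC-like, Micro-like and Endo-like classes outside the neurons. Control 2 was the smallest library, with 36 Micro-like and 57 Gran-like nuclei. Ependymal-like (169 nuclei) and Mural-like (105 nuclei) clusters are not described. A shallow Excitatory-like cluster, named from 4 markers of excitatory neurons in general, was left out too, and Control 3 gave it 1154 nuclei and every other library between 70 and 304.

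Over all kept nuclei, each of the 9 features was lower in every ALP library than in every control library. The values are CPM, UMI counts relative to the library total, scaled by the trimmed mean of M-values (TMM). ANK3-AS-1, the most abundant of them in UMIs, was at 105, 85.7 and 159 CPM in Control 1, 2 and 3 and at 27.1, 34.1 and 20.1 in ALP 1, 2 and 3, a fitted log2 fold change of -2.10 (SE 0.27). ZEB2-AS-1 had 71.0, 48.0 and 157 CPM in control TSs and 13.2, 15.7 and 9.07 in ALP TSs (log2 fold change -2.87, SE 0.43). Control 3 stood above the other control libraries for both, and without it the ZEB2-AS-1 value was -2.24. EXOC6B-AS-3 followed the same order of libraries, with 42.9, 21.2 and 75.0 CPM in control and 11.4, 13.2 and 7.77 in ALP TSs (log2 fold change -2.11, SE 0.41), and with -1.59 when Control 3 was left out. The share of features with all ALP values below all control values was 14.4% of the 22749 features tested over all nuclei and 31.1% of the 5931 antisense-named ones, and since the 9 were chosen on this difference nothing is read from their own count.

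PDE4B-AS-4 was at 32.3, 12.01 and 36.8 CPM in control TSs and at 4.17, 5.23 and 3.78 in ALP TSs (log2 fold change -2.63, SE 0.40), and NEGR1-AS-1 was at 9.16, 14.3 and 11.8 against 2.20, 2.40 and 2.38 (log2 fold change -2.32, SE 0.28). Control 2 was thus lowest among the controls for PDE4B-AS-4 and highest for NEGR1-AS-1, while the ALP libraries lay close together for both. KIAA0100-AS-1 had 32.0, 14.1 and 27.7 CPM in control and 6.95, 6.43 and 4.32 in ALP TSs (log2 fold change -2.08, SE 0.33). NEGR1-AS-2 had 31.6, 43.2 and 35.3 against 15.1, 9.86 and 11.7 CPM (log2 fold change -1.59, SE 0.22), and LRP1B-AS-2 had 45.4, 35.8 and 55.7 against 18.1, 22.7 and 13.3 (log2 fold change -1.34, SE 0.24). The smallest gap was that of CHST9-AS-2, with 38.3, 21.0 and 31.7 CPM in control and 16.8, 14.3 and 15.01 in ALP TSs (log2 fold change -0.99, SE 0.23). NEGR1-AS-1 and NEGR1-AS-2 lie on the same gene and are not separate observations of it.

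**Figure D1:**
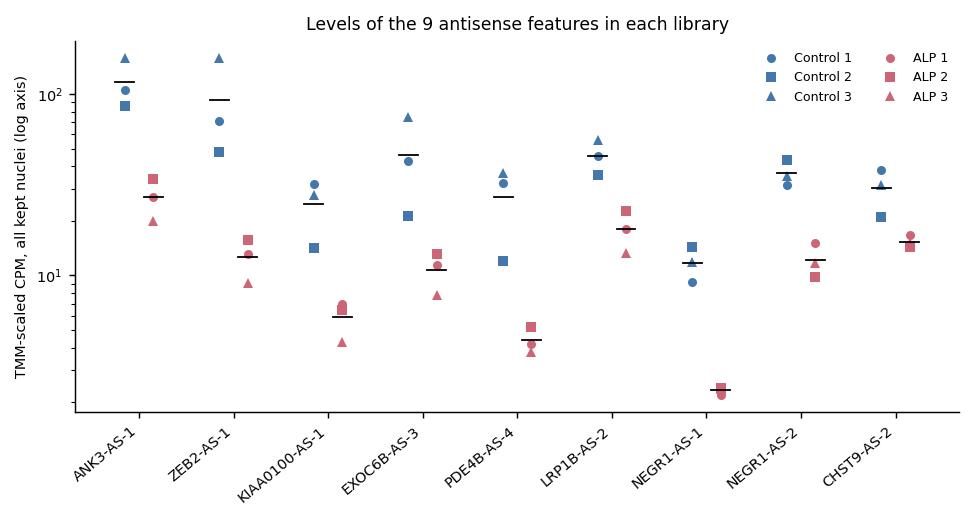
TMM-scaled CPM (log axis) of the 9 antisense features over all kept nuclei, with 1 point per library (control in blue, ALP in red) and the group mean as a black line. Each feature has its 3 ALP points below its 3 control points, and Control 3 is highest for ANK3-AS-1 (159 CPM), ZEB2-AS-1 (157 CPM) and EXOC6B-AS-3 (75.0 CPM).

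The difference was not particular to these 9 features. Of the 5931 antisense-named features tested over all nuclei, 74.6% had a log2 fold change below 0, with a median of -0.57, whereas 41.6% of the 16818 other features did, with a median of 0.08. Antisense-named features together took 6.87%, 5.93% and 8.58% of all UMIs in control TSs and 5.23%, 5.08% and 4.58% in ALP TSs, so that the groups did not overlap. In the 7 classes other than Endo-like, between 70.2% (Pyra-like) and 79.4% (InN-like) of the antisense-named features tested were lower in ALP TSs, and their share of UMIs was below that of the controls in all ALP libraries of these classes. In Endo-like nuclei 46.7% of only 15 features were lower, and the shares overlapped, at 3.98%, 2.77% and 5.09% in control and 2.69%, 2.92% and 3.38% in ALP TSs. This class had 42 nuclei in Control 2 and 28, 60 and 43 in the ALP libraries. Values from so few nuclei and features do not show that it differed from the other classes. A single intergenic feature, LINC-FRMD8-1, took 13.0%, 22.5% and 19.5% of the UMIs in control TSs and 25.8%, 21.0% and 27.3% in ALP TSs, and with it left out antisense-named features still held 7.90%, 7.65% and 10.7% against 7.04%, 6.43% and 6.30%. The part of this library-wide difference in the values of the 9 features was not tested. Over all nuclei, 45 of the 5931 antisense-named features had a lower fitted value than ZEB2-AS-1, and 1863 had a lower value than CHST9-AS-2.

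**Figure D2:**
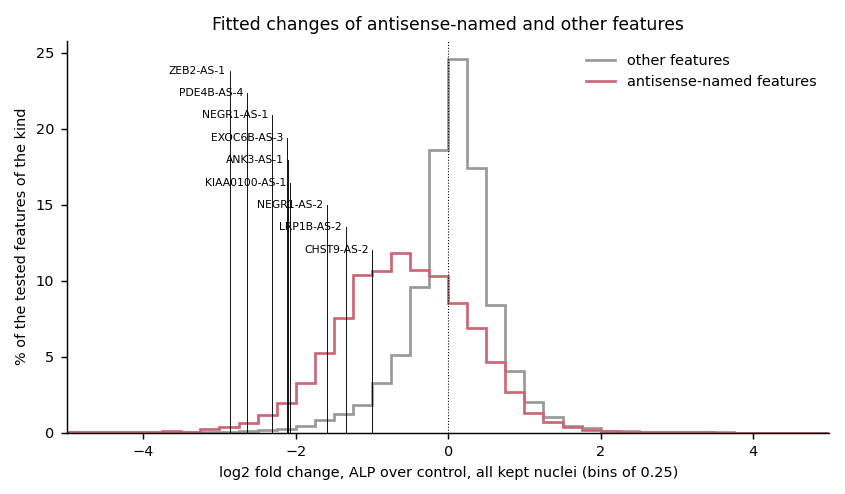
Distribution of the fitted log2 fold change (ALP over control, all kept nuclei) for 5931 antisense-named features (red) and 16818 other features (grey), as the percentage of each kind per bin, with black lines at the 9 features. The antisense-named features are centred at -0.57 and the others at 0.08, and the 9 features lie between -2.87 and -0.99.

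Within classes, 47 of the 72 pairs of a feature and a class passed the filter on low counts and were fitted. Of these 47, 46 had a log2 fold change below 0, and in 41 every ALP value was below every control value. Across the 8 classes together this pattern was met by 10.8% of all tested pairs and by 28.3% of those of antisense-named features. A feature that passes the filter through its control libraries alone is bound to be lower in ALP TSs, so these counts are no support for a difference. Of the 25 pairs that did not pass, none with over 73 UMIs in control or 13 in ALP TSs, 23 had the lower mean CPM in ALP TSs. The share over all features is not given for such pairs, so this count is no support either. For these pairs CPM was scaled by TMM over the sums of all classes and libraries together. CHST9-AS-2 in Endo-like nuclei had the higher mean in ALP TSs (11.3 against 8.07 CPM, from 13 UMIs), and NEGR1-AS-1 in Endo-like nuclei had 0 UMIs in every library. In Endo-like nuclei none of the 9 features passed. Among the 887 antisense-named features tested in at least 5 classes, 86 had non-overlapping lower ALP values in at least 5 of them. Of the 7 members tested in as many classes 5 did: ANK3-AS-1, ZEB2-AS-1, KIAA0100-AS-1, EXOC6B-AS-3 and NEGR1-AS-2. The members were chosen as lower in most classes, and the share over all features is not given for this pattern, so nothing is read from their count.

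**Figure D3:**
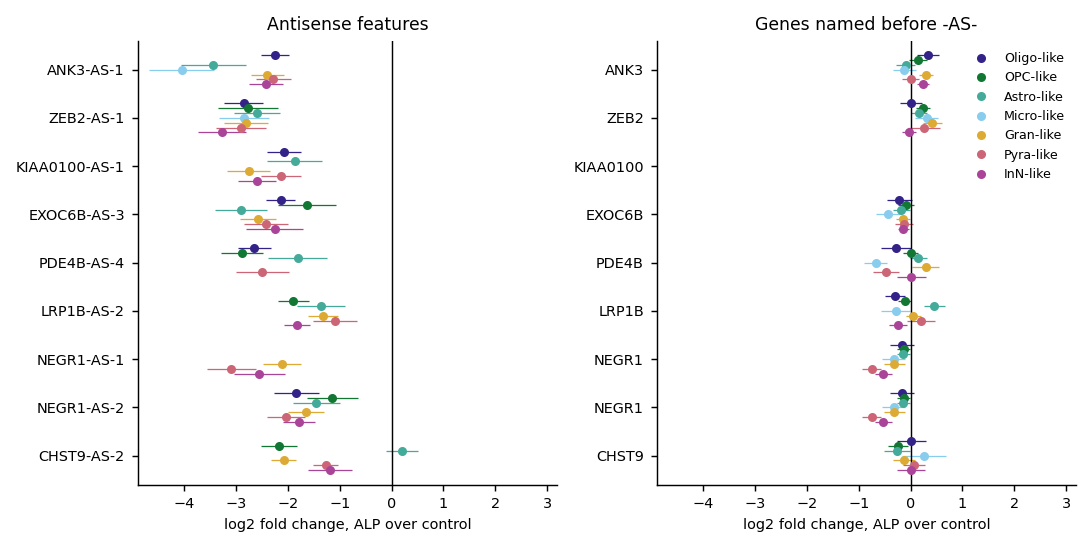
Fitted log2 fold change (ALP over control) with its SE in 7 cell classes (colours), for the 9 antisense features on the left and for their sense genes on the right, with NEGR1 drawn for both of its features and KIAA0100 listed at 0 UMIs. The antisense features lie between -4.05 and 0.20, and the largest distance of a sense gene from 0 shown is 0.75, for NEGR1 in Pyra-like nuclei.

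The clusters that make up a class did not hold the same share of it in each group. Of the Oligo-like nuclei, cluster 4 held 9.41%, 28.0% and 12.9% in control TSs and 43.3%, 29.99% and 44.6% in ALP TSs. Cluster 8 held 23.7%, 11.3% and 24.2% against 6.22%, 11.8% and 6.97%, and cluster 9 held 28.4%, 11.9% and 20.8% against 3.39%, 5.34% and 2.82%, so that Control 2 lay nearer to the ALP libraries than the other controls did. Within cluster 4 alone ANK3-AS-1 was at 209, 155 and 280 unscaled CPM in control and 30.4, 60.2 and 38.5 in ALP TSs, and PDE4B-AS-4 at 111, 55.5 and 109 against 17.9, 23.5 and 8.88. In cluster 8 the groups overlapped for both, with 242, 62.3 and 320 against 20.2, 83.8 and 45.3 CPM for ANK3-AS-1 and 121, 31.1 and 123 against 40.3, 11.4 and 25.9 for PDE4B-AS-4, where Control 2 rested on 2 UMIs and 1 UMI in 19 nuclei. In each of the other 4 of the 5 Oligo-like clusters the ALP values of both features lay below the control values. Of the other features fitted in this class, ZEB2-AS-1 met this in 5 of the 5 clusters, EXOC6B-AS-3 in 4, KIAA0100-AS-1 in 3 and NEGR1-AS-2 in 1. The make-up of the Pyra-like class was uneven as well, since cluster 19 held 72.6% of the Pyra-like nuclei of Control 3 and between 5.02% and 23.5% of those of every other library. All ALP values lay below all control values in 5 of the 5 Pyra-like clusters for ANK3-AS-1, 4 for EXOC6B-AS-3, and 3 for ZEB2-AS-1 and NEGR1-AS-2. This held in 1 for KIAA0100-AS-1 and CHST9-AS-2, and in 0 for PDE4B-AS-4, LRP1B-AS-2 and NEGR1-AS-1. Cluster 17 held 1 nucleus of Control 3, cluster 13 held 8 of Control 3, and cluster 24 held 8 of Control 2. The ANK3-AS-1 values of these libraries there rested on 1, 3 and 1 UMIs. With 0 UMIs in a control library a feature cannot meet the pattern, as in cluster 17 for PDE4B-AS-4, LRP1B-AS-2 and NEGR1-AS-1 in Control 3. The share over all features is not given within clusters either, so nothing is read from these counts of clusters. Gran-like cluster 21 held 26.3% of its class in Control 1 and between 1.75% and 6.38% in every other library. In Control 1 it gave 183 of 321 Gran-like UMIs of CHST9-AS-2 and 108 of 206 of KIAA0100-AS-1. Within cluster 3, which held most Gran-like nuclei, the ALP values of both features lay below the control values.

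ANK3-AS-1 was most abundant in Oligo-like nuclei, where it was at 236, 163 and 320 CPM in control TSs and 47.1, 69.3 and 39.6 in ALP TSs (log2 fold change -2.24, SE 0.27). In Gran-like nuclei it was at 123, 211 and 282 CPM against 35.5, 50.3 and 27.9 (log2 fold change -2.39, SE 0.32), in Pyra-like nuclei at 92.4, 115 and 189 against 28.4, 35.0 and 16.8, and in InN-like nuclei at 66.8, 114 and 154 against 19.99, 27.8 and 12.9. Control 3 was highest and ALP 3 lowest in each of these 4 classes. The lowest fitted value of any pair was that of ANK3-AS-1 in Micro-like nuclei (log2 fold change -4.05, SE 0.62), but it rested on 38, 5 and 30 UMIs in control TSs and 0, 2 and 1 in ALP TSs. ANK3 itself was at 2695, 2187 and 2148 CPM in control Oligo-like nuclei and at 2953, 2879 and 3072 in ALP ones (log2 fold change 0.34, SE 0.21, adjusted p = 0.373, edgeR quasi-likelihood test), and no class passed the test for it. Per 100 UMIs of ANK3, ANK3-AS-1 had 9.43, 12.3 and 17.0 UMIs in control TSs and 2.19, 2.92 and 1.47 in ALP TSs over all nuclei. A ratio of this kind compares libraries only, since neither feature is scaled to its length.

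EXOC6B-AS-3 showed a similar order of classes, highest in Oligo-like nuclei with 79.0, 55.7 and 123 CPM in control and 19.8, 25.3 and 16.6 in ALP TSs (log2 fold change -2.14, SE 0.28). It was lower by a larger fitted value in Astro-like nuclei (log2 fold change -2.91, SE 0.50), from 112 UMIs in the control against 10 in the ALP libraries. In OPC-like nuclei the groups overlapped, since Control 2 had 10.3 CPM and ALP 1 and ALP 2 had 14.3 and 16.2, and Control 3 reached 73.5. EXOC6B did not pass the test in any class, and in InN-like nuclei, for example, it was at 459, 435 and 436 CPM against 412, 409 and 389 (log2 fold change -0.14, SE 0.11, adjusted p = 0.562, edgeR). Its antisense feature was at 22.3, 20.9 and 75.2 CPM in the same control nuclei and at 10.8, 9.90 and 3.23 in the ALP ones, so that most of the spread among the controls came from Control 3. Per 100 EXOC6B UMIs the feature had 5.57, 5.06 and 14.6 UMIs in control and 2.11, 2.33 and 1.32 in ALP TSs over all nuclei.

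ZEB2-AS-1, the only feature fitted in 7 classes, had its ALP values below its control values in each, as ANK3-AS-1 did in its 6. In InN-like nuclei it was at 66.2, 80.6 and 212 CPM in control TSs and 13.0, 15.1 and 8.08 in ALP TSs (log2 fold change -3.27, SE 0.46), in Oligo-like nuclei at 130, 81.7 and 244 against 20.5, 31.9 and 14.2 (log2 fold change -2.85, SE 0.38), and in Micro-like nuclei at 134, 65.3 and 355 against 22.5, 36.7 and 19.8 (log2 fold change -2.85, SE 0.48). In all 3 classes Control 3 held the highest value by a wide margin and ALP 2 was highest among the ALP libraries. ZEB2 was at 741, 926 and 795 CPM in control InN-like nuclei and at 737, 894 and 794 in ALP ones, which overlapped (log2 fold change -0.02, SE 0.14, adjusted p = 0.954, edgeR). In Gran-like nuclei ZEB2 was at 765, 488 and 564 against 854, 770 and 846 CPM (log2 fold change 0.42, adjusted p = 0.232, edgeR), which passed when Control 1 was left out (adjusted p = 0.0256). ZEB2-AS-1 had 7.31, 7.23 and 20.1 UMIs per 100 ZEB2 UMIs in control TSs and 1.54, 1.73 and 0.911 in ALP TSs over all nuclei.

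PDE4B-AS-4 was concentrated in cells of the oligodendrocyte lineage. Oligo-like nuclei held 753 of its UMIs, at 107, 40.8 and 105 CPM in control TSs and 15.7, 18.2 and 10.3 in ALP TSs (log2 fold change -2.65, SE 0.32). In OPC-like nuclei it was at 27.3, 36.0 and 40.8 against 6.11, 4.63 and 3.06 CPM (log2 fold change -2.89, SE 0.41), and these control values lay closer together than those of Oligo-like nuclei. PDE4B was lower in ALP Micro-like nuclei without passing the test, at 1922, 2498 and 1748 CPM in control and 1181, 1332 and 1313 in ALP TSs (log2 fold change -0.67, SE 0.22, adjusted p = 0.204, edgeR), a class in which PDE4B-AS-4 had only 29 control and 1 ALP UMIs. Per 100 PDE4B UMIs over all nuclei the antisense feature had 1.49, 1.77 and 3.05 UMIs in control and 0.414, 0.403 and 0.306 in ALP TSs.

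NEGR1-AS-1 was tested in the 3 neuronal classes only. In Pyra-like nuclei it was at 15.01, 31.9 and 14.0 CPM in control TSs and 1.80, 2.80 and 2.05 in ALP TSs (log2 fold change -3.09, SE 0.47), from 64 against 18 UMIs. NEGR1-AS-2 was more abundant, at 83.3, 42.2 and 103 CPM in control Gran-like nuclei and 40.9, 14.9 and 25.5 in ALP ones (log2 fold change -1.65, SE 0.35), where Control 2 and ALP 1 were close. In OPC-like nuclei its groups overlapped, with 16.7, 30.8 and 22.9 CPM against 18.3, 3.47 and 10.7. NEGR1 was the sense gene nearest to the threshold. It was at 2276, 2668 and 2388 CPM in control Pyra-like nuclei and 1300, 1663 and 1394 in ALP ones (log2 fold change -0.75, SE 0.18, adjusted p = 0.114, edgeR), and at 2137, 2977 and 2619 against 1785, 2076 and 1499 in InN-like nuclei (log2 fold change -0.53, SE 0.16, adjusted p = 0.118, edgeR). The ALP libraries were below the controls in both classes, and the first of these passed with DESeq2 (adjusted p = 0.0175). With edgeR, 0 of the 13347 features tested in Pyra-like nuclei were called. Relative to the sense gene, NEGR1-AS-1 had 0.66, 1.19 and 0.585 UMIs per 100 NEGR1 UMIs in control Pyra-like nuclei and 0.138, 0.168 and 0.147 in ALP ones, so the ratio was lower in ALP TSs although NEGR1 was lower too.

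LRP1B-AS-2 had the most overlaps between groups. Its ALP values were below all control values in OPC-like nuclei, at 87.9, 61.7 and 140 CPM in control and 28.5, 27.8 and 24.5 in ALP TSs (log2 fold change -1.90, SE 0.30), and in InN-like nuclei, at 40.3, 37.3 and 52.7 against 13.5, 13.7 and 8.89 (log2 fold change -1.83, SE 0.25). In Gran-like nuclei ALP 2, at 48.2 CPM, was above Control 2, at 42.2, a library with 9 UMIs of the feature there. In Pyra-like nuclei ALP 2, at 34.6 CPM, was above Control 1, at 33.8, and in Astro-like nuclei ALP 1, at 32.1, was above Control 2, at 26.7. LRP1B over all nuclei was at 2666, 2735 and 1964 CPM in control and 2871, 3285 and 2628 in ALP TSs (log2 fold change 0.25, SE 0.21, adjusted p = 0.489, edgeR), and no class passed.

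CHST9-AS-2 was the only feature with a class in which it was not lower. In Astro-like nuclei it was at 27.0, 17.3 and 19.4 CPM in control TSs and 30.005, 20.5 and 26.1 in ALP TSs (log2 fold change 0.20, SE 0.31), and the groups overlapped. In Gran-like nuclei it was at 98.3, 65.7 and 96.0 against 20.4, 26.2 and 17.2 CPM (log2 fold change -2.08, SE 0.24), and in OPC-like nuclei at 51.2, 28.3 and 62.9 against 10.2, 10.4 and 12.2 (log2 fold change -2.18, SE 0.35). In these 2 classes no ALP value came near a control value, while the Pyra-like values were 56.3, 51.0 and 78.0 against 28.8, 20.6 and 27.4 CPM. Astro-like nuclei also differed in the ratio to the sense gene. Per 100 CHST9 UMIs they held 52.9, 44.8 and 36.8 UMIs of CHST9-AS-2 in control TSs and 56.0, 64.4 and 65.7 in ALP TSs, whereas Gran-like nuclei held 16.5, 16.7 and 28.5 against 4.44, 6.55 and 4.71. The Astro-like ratio was above that of OPC-like and of each neuronal class in each of the 6 libraries. It rested on 291 CHST9 and 148 CHST9-AS-2 UMIs in all.

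KIAA0100-AS-1 could not be set beside its sense gene, because KIAA0100 is listed at 0 UMIs in all 6 libraries, which allows a level of up to 0.048 CPM (3 counts of 62553881 kept UMIs, counting error only). Whether the annotation lets reads of KIAA0100 be counted at all is not known here, so this 0 is not read as a lack of expression. The antisense feature was highest in Gran-like nuclei, at 63.1, 14.1 and 52.5 CPM in control and 9.68, 7.09 and 5.75 in ALP TSs (log2 fold change -2.75, SE 0.42). Control 2 was far below the other controls there, with 3 UMIs. In Oligo-like nuclei the controls were closer together, at 23.5, 29.7 and 25.3 CPM against 8.19, 5.57 and 4.40 (log2 fold change -2.08, SE 0.33).

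**Figure D4:**
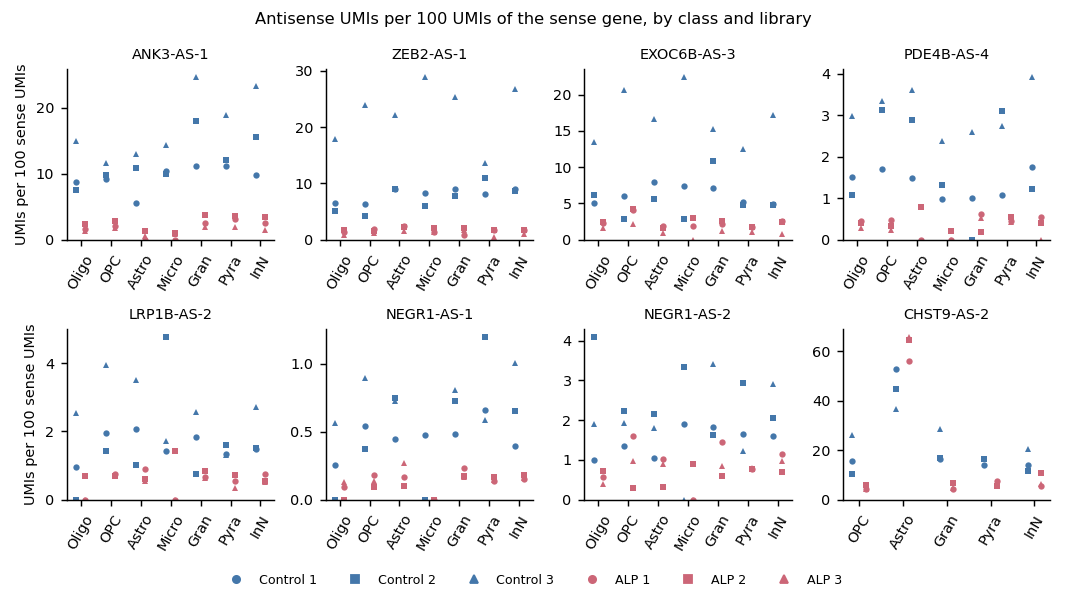
UMIs of each antisense feature per 100 UMIs of its sense gene in each class with at least 20 sense UMIs per library, with 1 point per library (control in blue, ALP in red). The ALP points lie below all control points except in 10 of the 54 pairs of a feature and a class, and CHST9-AS-2 in Astro-like nuclei is the pair with all ALP points above, with 36.8 to 52.9 in control and 56.0 to 65.7 in ALP libraries. The features were chosen as lower in ALP TSs and the ratio is not given for other antisense features, so nothing is read from this count.

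Of the sense genes, 55 pairs of a gene and a class were tested, over 7 genes, and 0 passed with edgeR, where a call needs an adjusted p under 0.05 and an absolute log2 fold change over 0.25. Of the pairs, 6 had an unadjusted p under 0.05 with edgeR, 3 of them lower and 3 higher in ALP TSs. DESeq2 called 1 pair, NEGR1 in Pyra-like nuclei. Over all features, 12728 of the 72703 tested pairs had an unadjusted p under 0.05 with edgeR, so nothing is read from the 6. Over all features and classes 1.4% of pairs were called in either direction. This share was uneven, with 0 of 13347 features called in Pyra-like and 0 of 1539 in Endo-like nuclei. The median log2 fold change of the 55 pairs was -0.11, against 0.00 over all 72703 tested pairs. The misses of the threshold do not show that the sense genes were equal in the groups, and with 3 animals per group smaller changes may not have been detectable.

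The annotation holds 29 other antisense features of the same 8 genes, which the choice of the 9 did not include. Of these, 12 had enough UMIs to be tested in 51 pairs, and 9 pairs were called with edgeR, all lower in ALP TSs, beside 0.95% of all tested pairs and 4.71% of those of antisense-named features called lower. The median log2 fold change of the 51 pairs was -0.82. PDE4B-AS-5, the most abundant of them with 43900 UMIs over all kept nuclei, fell in Micro-like nuclei from 916, 1012 and 834 CPM in control to 354, 399 and 307 in ALP TSs (log2 fold change -1.36, SE 0.21, adjusted p = 0.00761, edgeR). The groups were far apart there, while PDE4B was lower as well in this class without passing. Over Oligo-like, OPC-like, Astro-like and Micro-like nuclei together the groups overlapped for PDE4B-AS-5, at 2101, 536 and 1225 against 1120.5, 922 and 882 CPM. Of the 16 tested pairs of other PDE4B antisense features, 4 had every ALP value below every control value. In Oligo-like nuclei EXOC6B-AS-4 fell from 44.3, 52.0 and 42.0 to 16.4, 14.7 and 7.33 CPM (log2 fold change -1.82, SE 0.31, adjusted p = 0.0158, edgeR), and PDE4B-AS-3 (log2 fold change -1.47, adjusted p = 0.0185) and ZEB2-AS-3 (log2 fold change -1.66, adjusted p = 0.0283) fell in the same class. LRP1B-AS-4 fell in InN-like nuclei from 144, 117 and 157 to 64.8, 76.9 and 52.5 CPM (log2 fold change -1.10, SE 0.18, adjusted p = 0.0476, edgeR) and in OPC-like nuclei (log2 fold change -1.01, adjusted p = 0.0427), and LRP1B-AS-6 was called lower in both of these classes too (adjusted p = 0.0483 and 0.0418). NEGR1-AS-7 fell in Gran-like nuclei from 102, 51.6 and 51.5 to 17.2, 23.4 and 9.85 CPM (log2 fold change -2.11, SE 0.36, adjusted p = 0.0304, edgeR). These calls depended on single libraries: none was made by edgeR without ALP 1 or without ALP 3, and 1 without Control 3. ANK3 had no other antisense feature with UMIs, KIAA0100-AS-2 had 16 UMIs, and CHST9-AS-3 (313 UMIs) was tested in 1 class and not called.

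**Figure D5:**
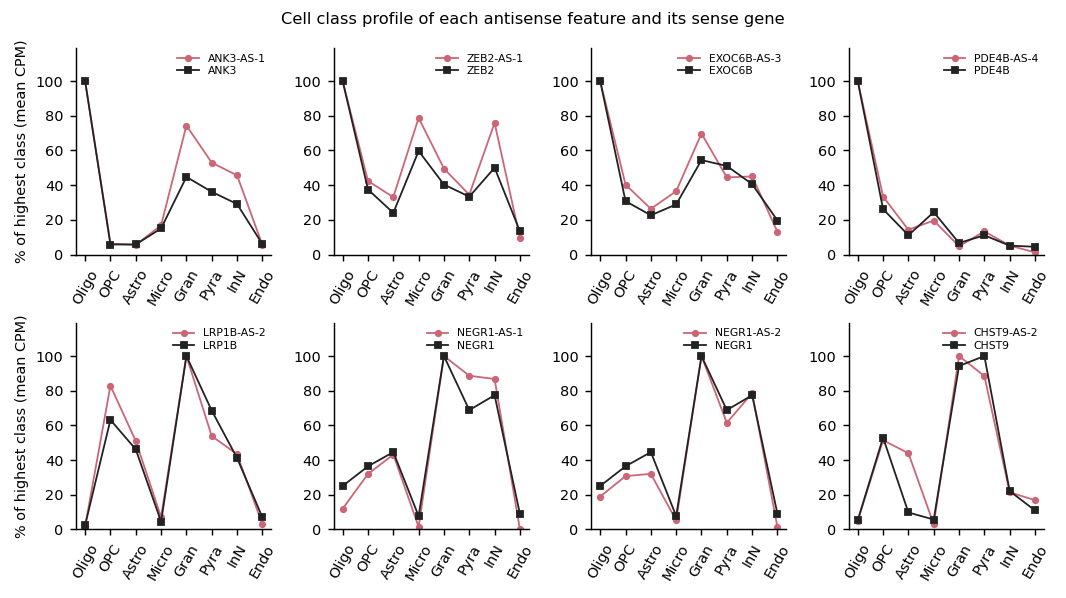
Mean CPM over the 6 libraries in each of 8 classes, as a percentage of the highest class, for each antisense feature (red) and its sense gene (black). Correlations of log2(mean CPM + 1) across the 8 classes lay between 0.886 (CHST9-AS-2) and 0.987 (ANK3-AS-1 and NEGR1-AS-1). On the linear scale drawn here the lines part in places, and the widest gap is that of CHST9-AS-2 in Astro-like nuclei.

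Across classes the antisense features largely followed their sense genes. For 7 of the 8 features with a counted sense gene the class with the highest mean CPM over the 6 libraries was the same for both: Oligo-like for ANK3-AS-1, ZEB2-AS-1, EXOC6B-AS-3 and PDE4B-AS-4, and Gran-like for LRP1B-AS-2, NEGR1-AS-1 and NEGR1-AS-2. CHST9-AS-2 was highest in Gran-like and CHST9 in Pyra-like nuclei over the 6 libraries, while in the control libraries CHST9 too was highest in Gran-like nuclei (467 CPM against 442 in Pyra-like). Pearson's r was taken between the 2 profiles of log2(mean CPM + 1) over 8 classes, whose values come from the same libraries. It was 0.987 for ANK3-AS-1 and NEGR1-AS-1, 0.974 for NEGR1-AS-2, 0.972 for LRP1B-AS-2, 0.968 for PDE4B-AS-4, 0.96 for ZEB2-AS-1, 0.931 for EXOC6B-AS-3 and 0.886 for CHST9-AS-2. This is a description over 8 points. If reads were counted without regard to strand, a sense and an antisense feature that overlap would share reads, and that cannot be told apart from a shared profile here.

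Neighbouring classes often did not differ beyond their spread. Levels in this paragraph are CPM of the control libraries, scaled by TMM over the sums of all classes and libraries together. ANK3-AS-1 was at 278 ± 118 (SD, n = 3) in Oligo-like, 209 ± 73.8 in Gran-like, 145 ± 49.4 in Pyra-like nuclei, with InN-like nuclei at 130 ± 51.6, and at 17.2 ± 5.26 in OPC-like nuclei. The step from Oligo-like to Gran-like nuclei, 0.44 on the log2 scale, was within its SD over the 6 libraries (0.49), while the step from InN-like to Micro-like nuclei was 2.10 with an SD of 1.40 and was seen in 6 of 6 libraries. PDE4B-AS-4 was at 100.0 ± 54.7 CPM in Oligo-like and 34.5 ± 5.54 in OPC-like nuclei, a step of 1.51 (SD 0.72) seen in 6 of 6 libraries. LRP1B-AS-2 was at 103 ± 54.4 in Gran-like and 97.2 ± 40.5 in OPC-like nuclei, which did not differ beyond their spread, and at 2.28 ± 2.58 in Oligo-like nuclei. NEGR1-AS-1 was at 22.6 ± 4.21 CPM in Gran-like, 21.0 ± 10.6 in InN-like and 22.3 ± 10.0 in Pyra-like nuclei, also within their spread. ZEB2-AS-1 was at 177 ± 108 in Oligo-like, 139 ± 94.7 in InN-like and 139 ± 111 in Micro-like nuclei, and its InN-like and Micro-like levels did not differ beyond their spread.

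A test of neuronal (Gran-like, Pyra-like and InN-like) against glial (Oligo-like, OPC-like, Astro-like and Micro-like) nuclei within each library did not use the values that chose the features. It called 5 of the 9 antisense features and 5 of the 7 sense genes with UMIs, beside 66.4% of the 17429 features tested, so that being called was no more frequent here than over all features. PDE4B-AS-4 was lower in neuronal nuclei (log2 fold change -2.78, SE 0.18, adjusted p = 6.17e-08, edgeR) by as much as PDE4B (-2.74, SE 0.13). NEGR1-AS-1 (1.89, SE 0.21) and NEGR1-AS-2 (1.85, SE 0.17) were higher in neuronal nuclei, as was NEGR1 (1.36, SE 0.12), all in 6 of 6 libraries. CHST9-AS-2 (1.40, SE 0.15) and CHST9 (2.04, SE 0.16) were higher there too, and so were LRP1B-AS-2 (1.09, SE 0.16) and LRP1B (1.27, SE 0.15). ZEB2 was lower in neuronal nuclei (-0.49, SE 0.15, adjusted p = 0.0103, edgeR), and ZEB2-AS-1 was not called (-0.25, SE 0.18, adjusted p = 0.243). ANK3-AS-1 (0.33, SE 0.19), EXOC6B-AS-3 (-0.26, SE 0.15) and KIAA0100-AS-1 (0.39, SE 0.18, adjusted p = 0.0715) were not called either. Of their sense genes, EXOC6B (-0.18, SE 0.11) and ANK3 (-0.29, SE 0.18) were not called, and ANK3 had the opposite sign to ANK3-AS-1. An exact sign-flip test over the 6 libraries gave its smallest possible p, 0.03125, for 9 of these 16 features, and 0.0556 after adjustment over the 16, a level it could have passed only with more features at that minimum.

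The features were sparse in single nuclei. In Oligo-like nuclei ANK3-AS-1 had a UMI in 28.5%, 22.6% and 37.6% of control and 5.33%, 8.92% and 4.32% of ALP nuclei, and 74.3% of the positive nuclei held 1 UMI. The ALP nuclei were shallower in this class, with median UMI counts between 1170 and 1324 against 1417 to 1644 in controls. After each nucleus was thinned to 1000 UMIs the shares were 20.6%, 15.9% and 27.4% against 4.00%, 6.08% and 3.81%. In OPC-like nuclei, the class in which the feature was lowest in controls, the thinned shares were 1.14%, 0.828% and 1.85% in control and 0.339%, 0.548% and 0.191% in ALP libraries, and the Oligo-like shares were above these in every library. CHST9-AS-2 in Gran-like nuclei had thinned shares of 8.27%, 6.01% and 8.33% in control and 1.63%, 2.16% and 1.33% in ALP libraries, from 24.3%, 22.8% and 22.8% against 5.01%, 7.19% and 4.03% before thinning. In Micro-like nuclei, its lowest class, the thinned shares were between 0% and 0.485%. Thinning left out nuclei with under 1000 UMIs: in Oligo-like nuclei 1977, 151 and 1283 control and 906, 1194 and 1321 ALP nuclei remained.

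Nuclei with a UMI of an antisense feature more often held a UMI of the sense gene than nuclei without one in the same library, class and range of depth. CHST9 was seen in 75.7% of 1157 nuclei with CHST9-AS-2, where 46.7% was the share in the matched nuclei without it. For the other features the sense gene was detected in most nuclei anyway: ANK3 in 95.2% against 88.2%, PDE4B in 96.3% against 87.98%, ZEB2 in 85.7% against 79.5%, EXOC6B in 80.6% against 72.6%, and LRP1B in 98.9% against 92.6%. Nuclei of a library are not replicates, depth still varied within each range, and these shares are a description.

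The features most like the 9 in their pattern were mostly other antisense features. Over 48 sums (8 classes in 6 libraries) and 15164 features with at least 200 UMIs, 23 of the 27 closest features by Pearson's r of log2(CPM + 1) were antisense-named, 4 of them members. The share of antisense-named features among the 15164 is not given, so nothing is read from this count. ZEB2-AS-1 was closest to CNBP-AS-1 (r = 0.931), EIF4G3-AS-4 (0.924) and TAB3-AS-1 (0.909), and ANK3-AS-1 to DLG2-AS-14 (0.917), MAP7-AS-3 (0.905) and TMEFF2-AS-3 (0.878). KIAA0100-AS-1 was closest to ZEB2-AS-1 (0.885), TTC17-AS-1 (0.885) and CCT4-AS-1 (0.864), and EXOC6B-AS-3 to RPL6li251 (0.866), GPBP1-AS-2 (0.853) and KIAA0100-AS-1 (0.848). NEGR1-AS-1 was closest to AUTS2-AS-2 (0.903), NEGR1-AS-2 (0.885) and ASTN1-AS-2 (0.883), and NEGR1-AS-2 to NEGR1-AS-1, NEGR1 (0.871) and ARNTL2-AS-1 (0.859). LRP1B-AS-2 was closest to NKAIN3-AS-4 (0.907), LRP1B-AS-4 (0.906) and LSAMP-AS-6 (0.905), PDE4B-AS-4 to PDE4B-AS-3 (0.864), CCDC122 (0.836) and PPP2R2B-AS-1 (0.801), and CHST9-AS-2 to LINC-STX8-4 (0.862), LRP1B-AS-4 (0.843) and NKAIN3-AS-2 (0.839). The sums mix classes and groups and share libraries, so these values carry the group difference by which the 9 were chosen.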

How the data were processed

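Raw counts were used: the authors deposited, for each of 6 hippocampal libraries (10x 3′ v3.1), a table of UMIs by feature and barcode, made with Cell Ranger from reads aligned to the TreeshrewDB genome. The labels and methods name Cell Ranger 3.1.0 and the headers of the matrices 6.1.2. The genome build and the use of strand are not given in the sources used here. The files held 0 columns of other samples.

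Nuclei with more than 200 and fewer than 2500 genes and under 5% mitochondrial UMIs were kept. They were scaled to 10000 UMIs, and clustered with scanpy 1.11.5 and leidenalg 0.10.2 (2000 variable features, 30 principal components, 20 neighbours, resolution 2), leaving out 46 features, namely the 9 members, their 8 sense genes and 29 other antisense features of these genes. A cluster was named from at least 3 markers, each in at least 3% of its nuclei and 1.5-fold over other nuclei. Clusters with at least 15% marked doublets, or led by mitochondrial or haemoglobin genes, stayed unnamed. Scrublet scores were ranked and the share expected from loading, 0.8% per 1000 barcodes, was marked. Marked nuclei in named clusters were kept, and removed in an alternative. The naming thresholds were set with the data in view, and the values within single clusters were added after the other results were known.

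UMIs were summed per library and class (at least 10 nuclei per sum). Differences were fitted over all features with edgeR 4.0.16 in R 4.3.3 (TMM, a minimum count of 10, quasi-likelihood test, Benjamini-Hochberg adjustment in each class, no covariate) and called at an adjusted p under 0.05 with an absolute log2 fold change over 0.25. Neuronal against glial sums were fitted with the library as a term. DESeq2 1.42.0, upper-quartile scaling, no filter, no upper gene limit, resolution 1, a replicate block and leaving out each library were alternatives. On simulated counts with 200 changed features, the fit recovered 137 in Oligo-like, 126 in Gran-like and 141 in InN-like nuclei (11671, 10379 and 12050 features) and 184 in the neuronal against glial fit (18277 features). False calls numbered 5, 6, 3 and 11. The simulated spread between libraries was fixed and not taken from these animals, so the share of real changes recovered is not known from it. No date or batch is given in the labels, and the replicate numbers share only a number.

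The members and the lists were chosen with earlier results of these data known. Named were the 9 members, their sense genes, per sense gene the other antisense feature with the most UMIs and every one called in a class, and per member the 3 most similar features. The 6 animals are separate, so the ALP against control tests set a difference against the spread between animals, and with 3 per group their number limits the precision. The neuronal against glial test has the library as a term and rests on how the difference within a library varied over the 6 libraries.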

Additional observations from a re-analysis of the deposited data

How the results depend on the processing

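The ALP values of the 9 features kept their direction over all nuclei under all 13 alternatives, and the number of feature and class pairs with every ALP value below every control value was 41 in the main analysis and 40 to 49 when a library was left out. Groups separate more easily with fewer values, and the share over all features is not given for these runs. As the 9 were chosen on this difference, these counts are no support for it. Without the upper gene limit the log2 fold change of NEGR1-AS-1 moved to -2.71 and that of CHST9-AS-2 to -1.34. Counts of calls moved more. Over all features 691 pairs were called lower and 326 higher, with 1243 and 569 by DESeq2, 3795 and 2076 without the filter on low counts, 1057 and 578 without the upper gene limit, and 2 to 1628 lower and 5 to 815 higher when a library was left out; the fewest came without ALP 1 (2 and 7), ALP 3 (3 and 5) or Control 3 (34 and 15), and the most without Control 2. The 9 calls among the other antisense features became 14 by DESeq2 and 28 without the filter, and 0 to 14 when a library was left out. The 0 came from edgeR without ALP 1 or ALP 3, where 33 and 28 pairs had an unadjusted p under 0.05. The share of all features under this p is not given for these runs. For the sense genes, DESeq2 and the fit without the filter made 1 call each (NEGR1, in Pyra-like and InN-like nuclei respectively), and leaving out a library 0 to 2, the 2 without Control 1 being ZEB2 in Gran-like and NEGR1 in InN-like nuclei. The neuronal against glial calls, 10 in all, were 10 to 14 without a library and 0 by the exact sign-flip test, which could not pass with 9 features at its minimum. With the replicate block, 154 pairs were called lower and 124 higher over all features, and 3 among the other antisense features. The replicate numbers did not pair the libraries, since the correlations of same-numbered libraries were -0.111, -0.0601 and -0.0975 and no sample correlated best with its own number. Why these counts moved was not tested. Resolution 1, upper-quartile scaling and the removal of marked doublets kept the counts within 1.5 times of the main ones. Low UMI counts (0 to 5 per ALP library in several pairs) limit the smaller features most.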

Other observations

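Barcodes with at least 2500 genes, which the filter on nuclei left out, numbered 1760, 1397 and 2208 in control TSs and 1163, 1928 and 893 in ALP TSs. In these barcodes too, each of the 9 features had all ALP values below all control values in unscaled CPM. Antisense-named features together were lower there as well, with 6.83%, 7.37% and 10.8% of the UMIs in control TSs and 5.53%, 5.28% and 4.48% in ALP TSs. The share of all features with this pattern is not given for these barcodes. Since the 9 were chosen on this difference in the same libraries, nothing is read from their count. ANK3-AS-1 was at 90.6, 146 and 264 CPM in control TSs and 29.0, 35.4 and 17.9 in ALP TSs, ZEB2-AS-1 at 65.8, 70.5 and 210 against 12.3, 13.0 and 7.41, and CHST9-AS-2 at 69.5, 40.7 and 95.4 against 26.5, 24.3 and 15.1. Control 3 was the highest library for these 3 features. ANK3 in the same barcodes was at 1009, 1050 and 1036 against 963, 1049 and 951 CPM, and the groups overlapped. Of the 7 sense genes with UMIs, 2 had all ALP values below all control values in these barcodes, EXOC6B at 682, 526 and 535 against 483, 516 and 466 CPM and NEGR1 at 2289, 2617 and 2065 against 1568, 1779 and 1542. These barcodes come from the same libraries and may hold doublets, so they are no further animals.

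In the shallow Excitatory-like nuclei, Control 3 held 140 UMIs of ANK3-AS-1 in 1154 nuclei. Control 1 and 2 held 20 and 5 UMIs in 304 and 80 nuclei, and the ALP libraries 2, 1 and 1 UMIs in 132, 163 and 70 nuclei. These UMI counts are not scaled to the number of nuclei, which differed widely.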
